A study of Mus musculus with 20 samples.

Results

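The nuclear genes of respiratory complex I were followed in RNA sequencing of mouse hearts that carried or lacked Sorbs2, a scaffold protein that binds actin at the Z-discs of heart muscle. Every row whose symbol starts with Nduf was taken, which gave 45 of the 19222 genes listed in the series: 38 subunit rows and 7 assembly factor rows, whose symbols start with Ndufaf. All 45 were listed at both ages, among 18657 genes at 6 months and 17808 genes at 6 weeks, and all 45 were high enough to be tested. At 6 months there were 4 KO+AAV, 5 KO and 5 WT libraries, and at 6 weeks 3 KO and 3 WT libraries. KO+AAV mice were Sorbs2 knockouts that received AAV9-Tnnt2-Sorbs2 on postnatal day 2, a virus whose Tnnt2 promoter is active in cardiomyocytes. KO mice were untreated Sorbs2 knockouts, and WT mice were untreated wild types. Both 6-month groups without the virus were uninjected, so the return of Sorbs2 and the injection itself cannot be told apart. The labels give neither strain nor sex, and they do not say whether replicates are separate animals, so p-values measure only the spread between these samples. The sample labels name left ventricle, whereas the extraction protocol names ventricular myocardium.

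Complex I oxidises NADH in the mitochondrial matrix, passes the electrons along a chain of iron-sulfur clusters to ubiquinone and pumps protons across the inner membrane. Its peripheral arm holds the NADH site and the iron-sulfur clusters, and its membrane arm holds the proton pumps. Core subunits carry out catalysis, accessory subunits surround them, and assembly factors join the modules but are absent from the finished enzyme. Heart muscle draws most of its ATP from the respiratory chain that this enzyme feeds. The mitochondrially encoded core subunits were not analysed here.

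The promoters of Ndufs7, Ndufs8 and Ndufa8 are shown because these 3 members, higher in KO+AAV than in KO hearts, kept that call under each of the 28 alternative settings tried. RefSeq gave stretches from 250 bases before to 50 bases after the start (GRCm38.p6) for 39 of the 45 members, in 41 rows. Capitals mark exact matches, on either strand, to the NRF1 motif GCGCATGC, the ETS motif CCGGAAG, the YY1 motif AAGATGG or the ERR motif AAGGTCA. No promoter shown holds more than 1 match. The Ndufs7 stretch lies wholly inside the span of that gene in GENCODE M21 (chr10:80249121-80256794). The RefSeq start used thus lies downstream of the first base of the gene in that annotation.
Ndufs7 (chr10:80249199-80249498, plus strand): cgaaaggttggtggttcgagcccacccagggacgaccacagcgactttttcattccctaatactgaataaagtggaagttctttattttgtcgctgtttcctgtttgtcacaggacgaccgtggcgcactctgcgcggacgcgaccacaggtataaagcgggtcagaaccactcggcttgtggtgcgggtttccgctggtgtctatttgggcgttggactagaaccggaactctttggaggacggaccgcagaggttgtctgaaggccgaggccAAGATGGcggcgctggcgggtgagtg
Ndufs8 (chr19:3912725-3913024, minus strand): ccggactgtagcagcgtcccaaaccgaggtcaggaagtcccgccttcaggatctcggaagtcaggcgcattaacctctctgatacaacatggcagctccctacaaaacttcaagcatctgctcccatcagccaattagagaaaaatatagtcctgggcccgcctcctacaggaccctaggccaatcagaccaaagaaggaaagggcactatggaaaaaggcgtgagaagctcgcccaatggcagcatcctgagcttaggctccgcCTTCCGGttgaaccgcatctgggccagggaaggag
Ndufa8 (chr2:36049289-36049588, minus strand): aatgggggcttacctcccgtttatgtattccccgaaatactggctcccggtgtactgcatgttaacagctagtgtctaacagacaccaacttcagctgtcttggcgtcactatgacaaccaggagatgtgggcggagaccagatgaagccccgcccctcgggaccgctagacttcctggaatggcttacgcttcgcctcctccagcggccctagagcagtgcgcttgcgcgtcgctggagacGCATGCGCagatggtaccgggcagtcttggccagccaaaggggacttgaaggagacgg
Ndufs7 held a YY1 match, Ndufs8 an ETS match and Ndufa8 an NRF1 match. Among the 41 member stretches, the NRF1 letters were in 5 (12.2%), the ETS letters in 5 (12.2%), the YY1 letters in 7 (17.1%) and the ERR letters in 3 (7.32%). Among all 32851 stretches, the shares were 2.71% for NRF1, 8.86% for ETS, 6.34% for YY1 and 4.72% for ERR. These matches are a description of letters and were not tied to any measured binding.

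The 14 libraries of 6 months summed to 11359135 to 13670340 normalised counts and the 6 libraries of 6 weeks to 6705133 to 8240294. The series text gives at least 40 M paired-end reads per sample, but not how many lie behind these sums. Sorbs2 had 4696, 5753, 15690.3 and 17923 in KO+AAV libraries, 1648, 612, 593, 494 and 1755 in KO libraries and 5352, 5398, 5136, 4562 and 4753 in WT libraries at 6 months, and 365, 334 and 276 in KO libraries, against 1409, 1751 and 1989.8 in WT libraries at 6 weeks. Values of single genes are normalised counts here and in what follows. The log2 change of Sorbs2 was 3.41 in KO+AAV against KO (limma adjusted p = 0.000383), -2.52 in KO against WT at 6 months (0.000543) and -2.39 at 6 weeks (0.000552). KO libraries held the least Sorbs2 at both ages, with more in KO replicates 1 and 5 than in the other 3 at 6 months. KO+AAV replicates 2, 3 and 4 held more than any WT library of 6 months, replicates 3 and 4 by far. Xist was expressed in 2 of 4 KO+AAV, 0 of 5 KO and 2 of 5 WT libraries at 6 months, in 1 KO and in 1 WT library at 6 weeks, and the others expressed Y-linked genes. None of the 10 cardiomyocyte markers was at 0. They made up 10.8% to 14.7% of the total in KO+AAV, 7.26% to 8.92% in KO and 11.1% to 13.1% in WT libraries at 6 months.

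The subunits were far more abundant than the assembly factors in WT hearts. Ndufa4l2 aside, subunits are set against assembly factors per kilobase of the principal transcript: the 37 subunit rows had a median level of 5524 normalised counts at 6 months, and the 7 assembly factors had a median of 263. Ndufa4 stood highest at 18787 ± 4915 (SD, n = 5), but its neighbours Ndufb9 at 16637 ± 4812 and Ndufb8 at 14189 ± 2804 lay within that spread. The spread is that between libraries, which these genes largely share, so it does not bear on their order within a library. That order was not tested. Among the core subunits of the peripheral arm, Ndufv1 had 7519 ± 648 per kilobase and Ndufs1 had 3838 ± 971. Ndufaf6 had the lowest level of all members, 141 ± 18 per kilobase. The low per-kilobase values of Ndufb2 and Ndufab1 rest on long principal transcripts of 4371 and 3479 bases in GENCODE M21.

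In KO hearts at 6 months, complex I transcripts were lower than in WT hearts across both arms of the enzyme. Of the 45 members, 28 fell and 0 rose (limma, adjusted p under 0.05 over 13419 genes), whereas 8.18% of all genes tested fell. The 28 were 24 of 38 subunits and 4 of 7 assembly factors. The median log2 change of the members was -0.68, beside 0.0023 over all genes, and every member lay below 0, between -0.91 for Ndufs7 and -0.14 for Ndufa4l2. In 16 of 45 members the KO libraries all lay below the WT libraries, against 7.29% of all genes. Together the members made up 1.01% to 1.4% of the total in KO libraries, against 1.33% to 2.19% in WT libraries. In these bulk samples, fewer cardiomyocytes and less RNA per cardiomyocyte cannot be told apart.

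**Figure D1:**
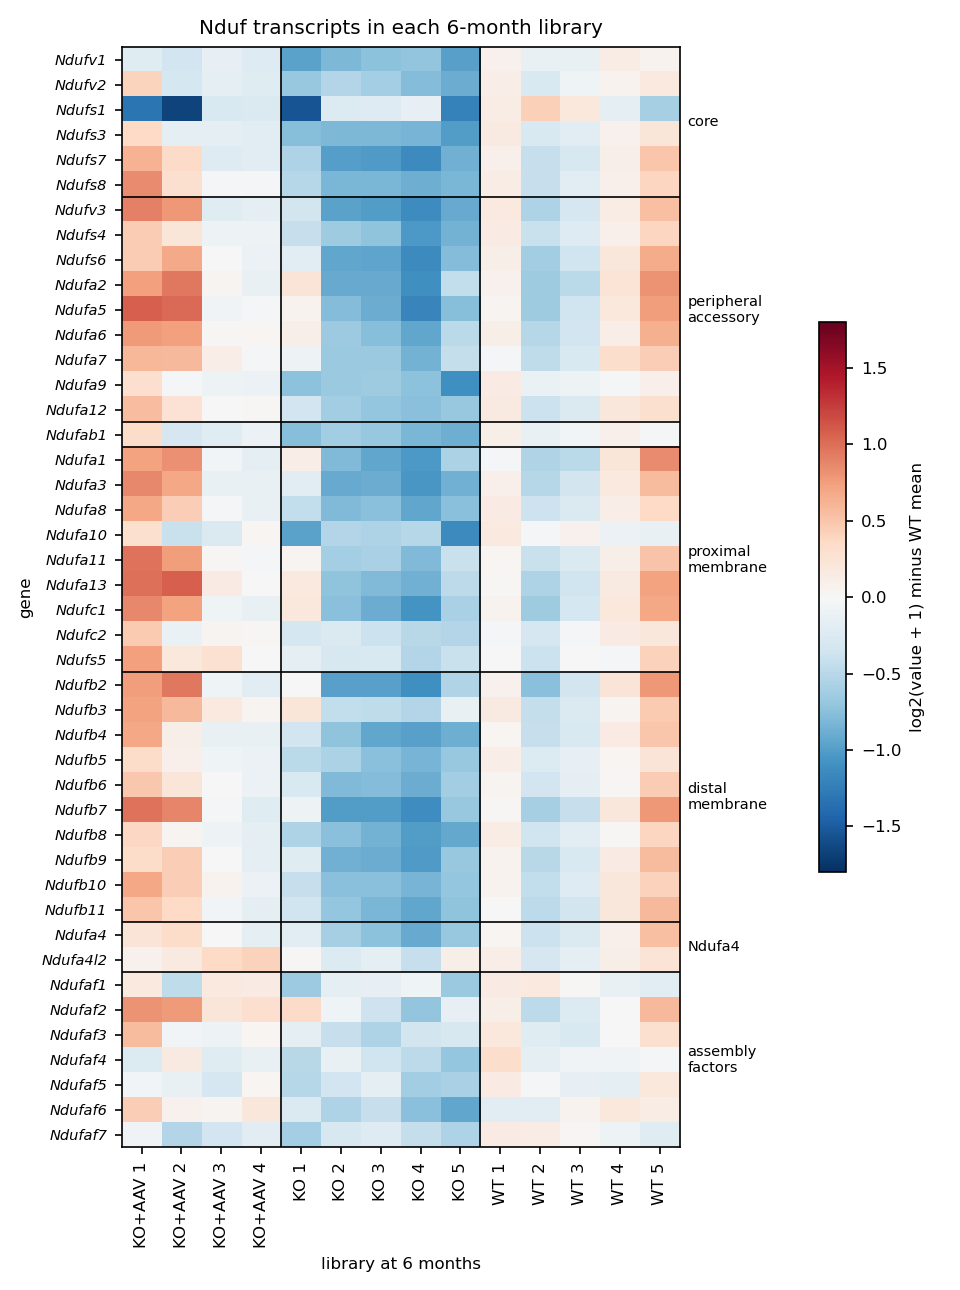
Each cell is 1 of 44 members (rows, grouped by place in the enzyme) in 1 library at 6 months (columns), coloured by log2(value + 1) minus the WT mean of that gene. The KO columns are mostly blue. KO 1 is paler than the other KO libraries for many accessory subunits and lies above the WT mean for some, Ndufa13, Ndufa2, Ndufb3 and Ndufc1 among them. Ndufs1 is darkest in KO+AAV 1 and 2 and in KO 1 and 5.

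The core subunits of the peripheral arm fell in 6 of 7 cases, with a median log2 change of -0.84. Ndufv1 (chr19:4007384-4012806, GRCm38), which binds NADH and flavin, had 10737, 9823, 11226 and 10582 in KO+AAV libraries, 6378, 7082, 7443, 7605 and 6350.1 in KO libraries and 13170.0, 11326, 11359, 13644 and 12947 in WT libraries. All 5 KO libraries lay below all others, and the fall was 1.79-fold (log2 change -0.84 ± 0.11 SE, limma adjusted p = 0.000143). Ndufs7, at chr10:80249121-80256794, which carries the last iron-sulfur cluster of the chain, had 8327, 6839.5, 4600.4 and 4681 in KO+AAV libraries, 3659.7, 2717, 2667, 2439.9 and 2943 in KO libraries and 5761, 4042, 4423, 5779 and 7599.6 in WT libraries. It showed the largest fall of the called members, 1.88-fold (log2 change -0.91 ± 0.20, adjusted p = 0.0051), with KO replicate 1 closest to WT.

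Ndufs3, a structural core subunit beside the ubiquinone site, had 7549, 5279, 5289 and 5142 in KO+AAV libraries, 3468, 3388, 3367, 3312 and 2945 in KO libraries and 6613, 4895, 5193, 6216 and 6883 in WT libraries. The KO values lay close together and below the rest (log2 change -0.84 ± 0.14, adjusted p = 0.000624). Ndufs3 is uncertain, since 22.8% of its 31-base stretches also occur in other genes, chiefly the processed pseudogene Gm12251. Ndufs8, which holds iron-sulfur clusters of the same module, had 7107, 4821, 3864 and 3844 in KO+AAV libraries, 2748, 2231, 2229, 2150.3 and 2232 in KO libraries and 4334, 2955, 3423, 4193 and 5169 in WT libraries. Ndufv2, which holds an iron-sulfur cluster next to Ndufv1, had 12947, 7873, 8621 and 8438 in KO+AAV libraries, 6085, 6777, 6363, 5710.1 and 5276 in KO libraries and 10599, 8100.0, 9241, 10171 and 11022 in WT libraries. Both were lower in KO, without overlap with WT, with log2 changes of -0.77 and -0.70 (adjusted p = 0.00829 and 0.00447). Ndufs1, the largest subunit and the carrier of several iron-sulfur clusters, had 4006, 3134, 8233 and 8305 in KO+AAV libraries, 3383, 8409, 8430.4, 8983 and 4256 in KO libraries and 10909, 13357, 11349.7, 8884 and 6566 in WT libraries. KO replicates 1 and 5 and KO+AAV replicates 1 and 2 stood well below the other libraries of their groups. The KO and WT ranges overlapped, and the change of -0.68 was not called (95% interval -1.38 to 0.023, adjusted p = 0.19).

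**Figure D2:**
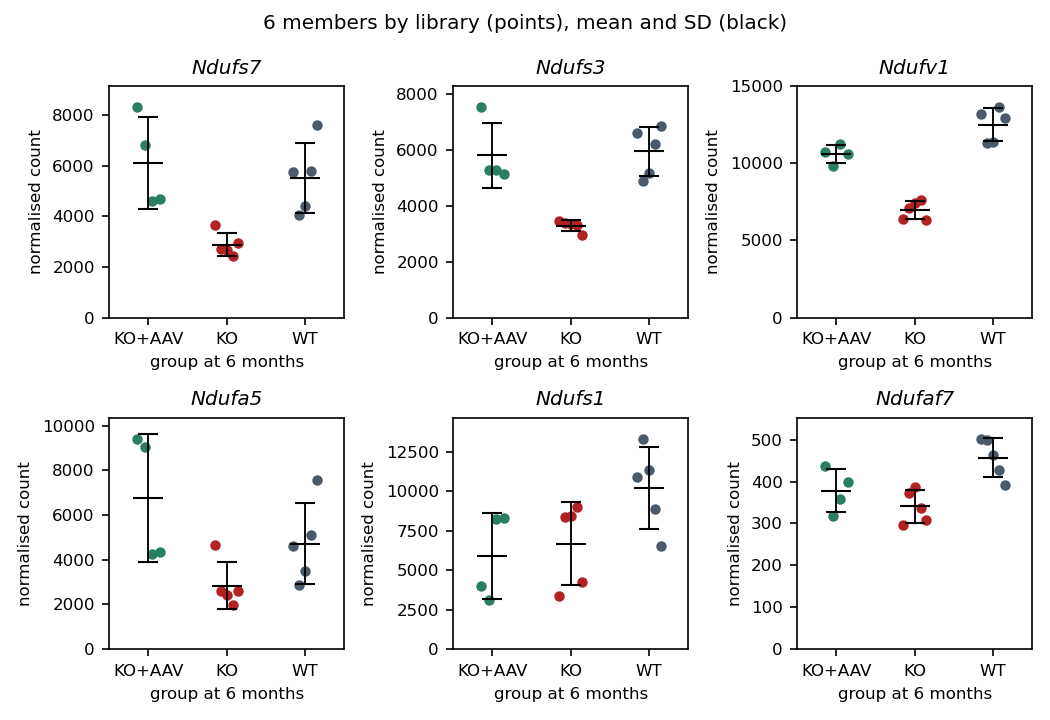
Normalised counts of 6 members in every 6-month library (points), with the group mean and SD (black), for KO+AAV, KO and WT hearts from left to right. Ndufs7, Ndufs3 and Ndufv1 have no KO library as high as any KO+AAV or WT library, while the Ndufs1 points of KO+AAV and KO split into high and low libraries.

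Accessory subunits moved in the same direction as the core. Of those in the peripheral arm, 5 of 9 fell (median -0.71); of the proximal membrane arm, 4 of 9 (median -0.62); and of the distal membrane arm, 7 of 10 (median -0.72). None rose. Ndufv3, an accessory subunit of the NADH-binding module, had 8022, 7334, 3665 and 3779 in KO+AAV libraries, 3408, 2205, 2133, 1944 and 2282 in KO libraries and 4854, 2908, 3463, 4708 and 6253 in WT libraries. KO replicate 1 lay above the lowest WT library, and the log2 change was -0.87 ± 0.25 (adjusted p = 0.0292). Ndufab1, the mitochondrial acyl carrier protein that sits in both arms, fell by 1.69-fold to 2646 ± 191 in KO, against 4459 ± 304 in WT (SD, n = 5 each, adjusted p = 0.000687). Ndufb8, of the distal membrane arm, averaged 5419 ± 662 in KO and 9649 ± 1907 in WT (adjusted p = 0.00214). Ndufb3 had the smallest change of these accessory subunits, -0.27 (95% interval -0.69 to 0.14), and was not called.

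Ndufa4, named as a complex I subunit but later placed in cytochrome c oxidase, had 13157, 14090.0, 11096 and 10024 in KO+AAV libraries, 9836, 7379, 6694, 5964 and 6975 in KO libraries and 11424, 8516, 9298, 11865 and 16198 in WT libraries. It was lower in KO (log2 change -0.62 ± 0.18, adjusted p = 0.0307), with KO replicate 1 inside the WT range. Its paralogue Ndufa4l2, known as a target of hypoxia signalling, had 275, 292, 334 and 347 in KO+AAV libraries, 265, 219, 233, 196 and 281 in KO libraries and 282, 210.4, 234, 281 and 309 in WT libraries. The groups overlapped, and the change of -0.14 was not called (95% interval -0.44 to 0.16).

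The median log2 change of the assembly factors was -0.42, beside -0.71 for the subunits, a difference that was not tested. Ndufaf4, which acts with Ndufaf3 on the ubiquinone module, had 849.5, 1124, 867 and 912 in KO+AAV libraries, 709.5, 916, 782, 727 and 621 in KO libraries and 1245, 901, 964, 959.7 and 982 in WT libraries. Ndufaf5, which hydroxylates an arginine of Ndufs7, had 295, 276, 246 and 312 in KO+AAV libraries, 213, 239.9, 269, 197 and 203 in KO libraries and 338, 298, 276, 272 and 348 in WT libraries. Ndufaf6, an early assembly factor, had 208, 161, 157 and 174 in KO+AAV libraries, 126, 103, 113, 89.5 and 79 in KO libraries and 131, 133, 159, 174 and 166 in WT libraries. These 3 were lower in KO, with log2 changes of -0.43, -0.45 and -0.59 (adjusted p = 0.0335, 0.0229 and 0.0156), and the KO and WT values of Ndufaf5 and Ndufaf6 did not overlap. Ndufaf7, an arginine methyltransferase that acts early in assembly, had 437, 317, 359 and 399 in KO+AAV libraries, 297, 374, 386, 338 and 309 in KO libraries and 503, 499.9, 464, 429 and 392 in WT libraries. It was also lower in KO without overlap (log2 change -0.42, adjusted p = 0.0288). The calls of Ndufaf4, Ndufaf5, Ndufaf6 and Ndufaf7 were lost in 12, 9, 4 and 10 of the 28 alternative settings. Scaling to equal totals lost each of them, and the length correction given last lost all but Ndufaf4.

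Ndufaf1, a member of the assembly complex that also holds Ecsit and Acad9, had 677, 438, 679 and 669 in KO+AAV libraries, 380.5, 537, 543, 571 and 377 in KO libraries and 668, 678, 608, 546 and 523 in WT libraries. Ndufaf2, which helps to attach the NADH-binding module, had 572, 557, 377 and 403 in KO+AAV libraries, 415, 308, 251, 198 and 295 in KO libraries and 349, 236, 275, 329 and 489.8 in WT libraries. Ndufaf3, the partner of Ndufaf4, had 566, 369.8, 357 and 392 in KO+AAV libraries, 341, 285, 259, 302 and 313 in KO libraries and 435, 329, 317, 386 and 465 in WT libraries. In all 3 the KO and WT ranges overlapped, and changes of -0.34, -0.19 and -0.35 were not called (95% intervals -0.69 to 0.00044, -0.65 to 0.27 and -0.67 to -0.032). The strand setting of the counting is not given in the sources used here, and 65.6% of the exon bases of Ndufaf2 lie opposite the exons of B230220B15Rik, so reads of the pair may be mixed. The same holds for 39.0% of Ndufb6 opposite Smim27 and 30.0% of Ndufa13 opposite Tssk6. Sequence shared with other genes, many of them pseudogenes, makes Ndufs5 (26.5% of 31-base stretches), Ndufa12 (20.2%), Ndufb4 (19.1%) and Ndufb11 (19.1%) uncertain too. Smaller shares were found for Ndufb9 (17.2%, with the protein-coding gene Gm49356), Ndufs6 (15.1%) and Ndufb3 (13.5%), which are uncertain as well.

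Of the complex I assembly factors with other names, 4 of the 9 tested fell in KO hearts and 0 rose, with a median of -0.38. They were Tmem70, which also serves ATP synthase (log2 change -0.67, adjusted p = 0.00478), Ecsit (-0.60, 0.0166), the membrane factor Timmdc1 (-0.34, 0.0272) and the iron-sulfur protein Nubpl (-0.77, 0.0442). Foxred1 at -0.52, Tmem186 at -0.38, Acad9 at -0.26, Lyrm2 at -0.065 and Tmem126b at 0.075 were not called. Of 15 regulators of mitochondrial biogenesis, 4 fell and 0 rose (median -0.27). Ppargc1a, a coactivator that drives mitochondrial genes, averaged 1079 ± 129 in KO and 2363 ± 908 in WT (log2 change -1.05 ± 0.24, adjusted p = 0.00728). The others that fell were the fatty acid receptor Ppara (-0.70), the orphan receptor Esrra (-0.39) and the mitochondrial RNA polymerase Polrmt (-0.46). Nrf1, Gabpa and Yy1, which bind promoters of respiratory genes, had changes of -0.043, -0.074 and -0.0061 and were not called.

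Among the other respiratory complexes, 27 of 39 nuclear subunits of complexes II to V fell and 0 rose, with a median of -0.68. Of the cardiomyocyte markers, 4 of 10 fell (median -0.61), the creatine kinase Ckm at -1.57 and the myosin Myh6 at -1.19 among them. Of the fibroblast markers, 6 of 10 rose (median 0.74), the collagen Col1a1 at 1.52 among them. Their share of the total was 0.369% to 0.513% in KO and 0.224% to 0.356% in WT libraries, and the part of these and the following marker lists in the fall of the complex I genes was not tested. The 7 skeletal muscle markers, which include the actin Acta1, made up 0.341% to 0.737% in KO and 0.031% to 0.158% in WT libraries, without overlap. Of the 4 tested, Acta1 rose (2.60, adjusted p = 0.00294) and Tnni2 fell (-1.55, adjusted p = 0.0161). The fast myosin Myh2 was at 0 in all KO libraries, and the fast myosin Myh4 was at 0 in all KO and all WT libraries. Endothelial markers made up 0.11% to 0.139% in KO and 0.122% to 0.155% in WT libraries, with 0 of 10 called, and 1 of 8 macrophage markers rose. Mural cell markers made up 0.0641% to 0.084% in KO and 0.086% to 0.135% in WT libraries, without overlap, and 2 of 8 fell and 1 rose. All 5 KO libraries expressed Y-linked genes. Against the 3 WT libraries of that kind alone, 12 members fell, beside 675 of all genes tested. Without KO replicate 4, 18 members fell, beside 980 of all genes. With every library, 1098 of all genes fell.

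**Figure D3:**
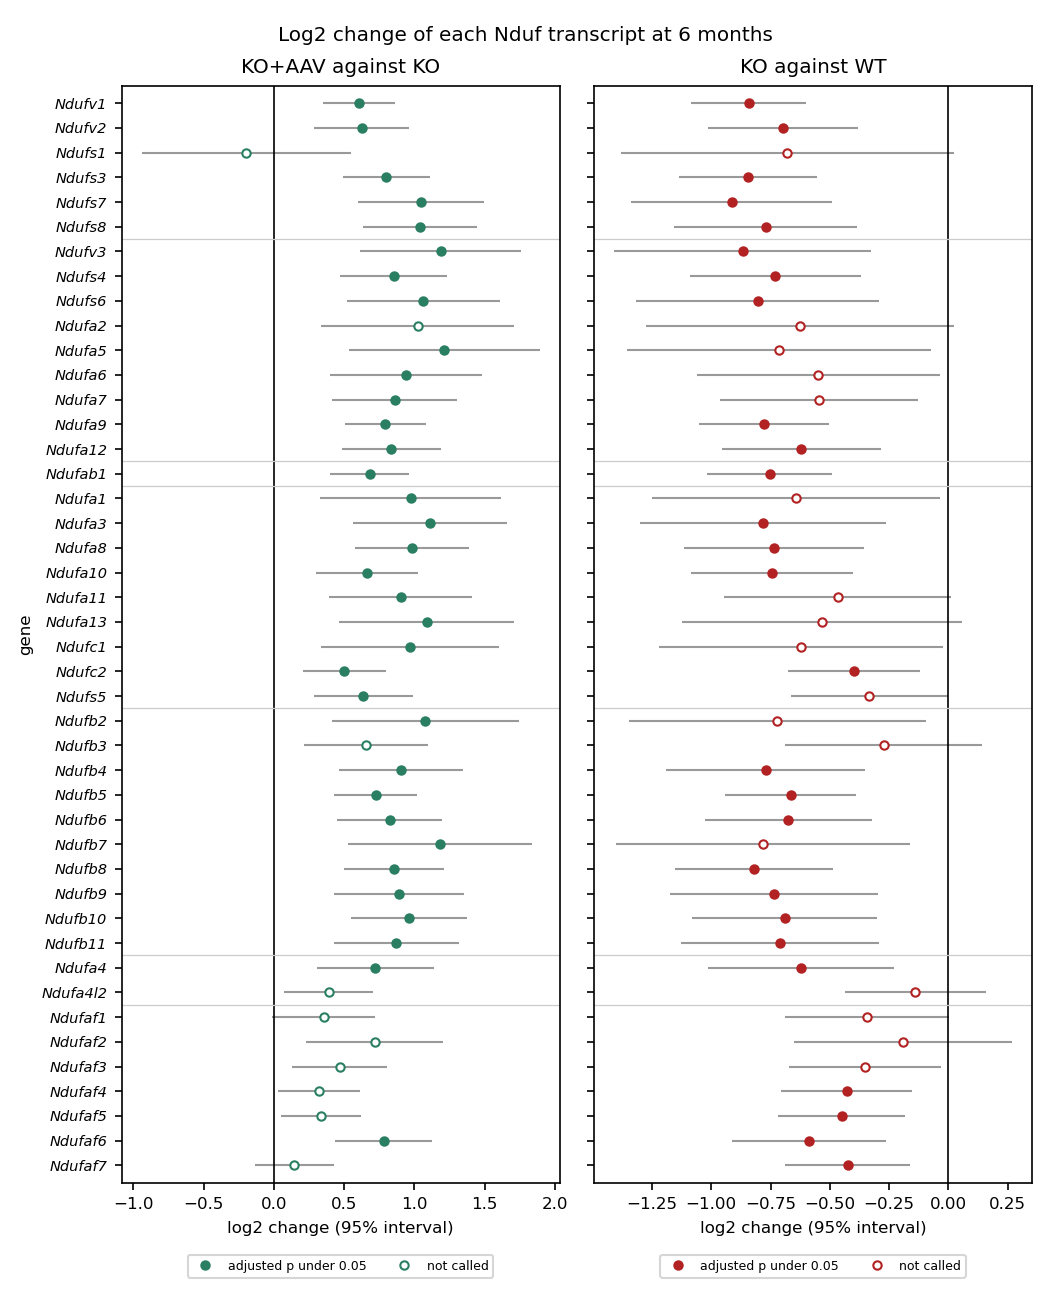
Log2 change of each member with its 95% interval (limma, 6 months), for KO+AAV against KO (left) and KO against WT (right); filled points passed adjusted p under 0.05. The 44 members shown lie below 0 in KO against WT, and all but Ndufs1 lie above 0 in KO+AAV against KO; the comparisons share the KO libraries.

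In KO hearts given Sorbs2, complex I transcripts were higher than in untreated KO hearts. Of the 45 members, 35 rose and 0 fell (limma, adjusted p under 0.05), whereas 5.55% of all genes tested rose. The 35 were 34 of 38 subunits and 1 of 7 assembly factors, Ndufaf6. The median log2 change of the members was 0.84, and that over all genes was close to 0. In 28 of 45 members the KO+AAV libraries all lay above the KO libraries, against 6.68% of all genes. Members made up 1.68% to 2.27% of the total in KO+AAV libraries, against 1.01% to 1.4% in KO libraries. Within the KO+AAV group the share ran opposite to Sorbs2. Replicates 1 to 4 held 4696, 5753, 15690.3 and 17923 of Sorbs2, and 2.27%, 2.12%, 1.73% and 1.68% of members. The relation of Sorbs2 to the members within this group was not tested. This comparison shares the KO libraries with the one before it: 25 members were called in both, 3 only as lower in KO, 10 only as higher in KO+AAV and 7 in neither.

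Of the core subunits, 6 of 7 rose. Ndufs7 rose by 2.07-fold (log2 change 1.05 ± 0.21, adjusted p = 0.00622) and Ndufs8 by 2.06-fold (1.04 ± 0.19, 0.00379). Ndufs3, Ndufv1 and Ndufv2 rose by 0.80, 0.61 and 0.62 on the log2 scale (adjusted p = 0.00355, 0.00597 and 0.0203). For Ndufs1 the change was -0.20 (95% interval -0.94 to 0.55), with KO+AAV replicates 1 and 2 among the 4 lowest of all 14 libraries. All 9 accessory subunits of the proximal membrane arm rose (median 0.97), as did 8 of 9 of the peripheral arm (median 0.94) and 9 of 10 of the distal membrane arm (median 0.88).

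The 4 largest increases were in accessory subunits. Ndufa5, of the ubiquinone module, had 9430.1, 9071, 4269 and 4346 in KO+AAV libraries, 4651, 2606, 2411, 1957 and 2614 in KO libraries and 4608, 2856, 3495, 5109 and 7554 in WT libraries. KO+AAV replicates 1 and 2 lay far above replicates 3 and 4, and KO replicate 1 lay above replicates 3 and 4, so the groups overlapped despite a log2 change of 1.21 ± 0.32 (adjusted p = 0.0243). Ndufb7, of the distal membrane arm, had 11650.4, 10938, 5783 and 5091 in KO+AAV libraries, 5552, 2941, 2953, 2726 and 3701 in KO libraries and 6028, 3931, 4459, 6824 and 10144 in WT libraries, with KO replicate 1 again inside the KO+AAV range. Ndufa3, of the proximal membrane arm, had 7441, 6607, 3717 and 3725 in KO+AAV libraries, 3538, 2169, 2186, 1964 and 2242 in KO libraries and 4349.9, 2857, 3228, 4593 and 6062 in WT libraries. They rose by 1.18 and 1.11 on the log2 scale (adjusted p = 0.0236 and 0.0132), and Ndufv3 by 1.19 (adjusted p = 0.0118), and KO+AAV replicates 1 and 2 were the highest libraries of each. Ndufa4 rose by 0.72 (adjusted p = 0.028), and Ndufa4l2 at 0.39 was not called (95% interval 0.075 to 0.71).

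Among the assembly factors, Ndufaf6 rose by 1.72-fold without overlap (log2 change 0.78 ± 0.16, adjusted p = 0.0074). Its call was lost with Y-linked libraries alone and under the length correction given last. The other 6 assembly factors lay above 0 but were not called, from 0.15 for Ndufaf7 (95% interval -0.13 to 0.43) to 0.72 for Ndufaf2 (95% interval 0.23 to 1.21). Of the 9 assembly factors with other names, Ecsit alone rose (0.71, adjusted p = 0.0135), and the median was 0.15. Of the 15 regulators, Esrra alone rose (0.52, adjusted p = 0.0131), while Ppargc1a at 0.47 was not called (95% interval -0.075 to 1.02).

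Subunits of complexes II to V rose in 27 of 39 cases (median 0.78). Of the cardiomyocyte markers 3 of 10 rose (median 0.70), and of the fibroblast markers 4 of 10 fell (median -0.64), to 0.265% to 0.363% of the total in KO+AAV libraries. Skeletal muscle markers made up 0.0416% to 0.247% in KO+AAV libraries, with Acta1 at -1.63 and not called (adjusted p = 0.0684); their part in the rise of the complex I genes was not tested. The count rests on few KO+AAV libraries: 15 members rose without KO+AAV replicate 1, beside 238 of all genes tested. With every library, 745 of all genes rose. With libraries of Y-linked expression alone, which leaves 2 KO+AAV libraries, Ndufa8, Ndufs7 and Ndufs8 rose, named here after their values were seen. In that setting 82 of all genes rose, and the median of the members was 0.75.

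Between KO+AAV and WT hearts at 6 months, 0 of 45 members were called by limma, against 1.33% of all genes. Unadjusted, 2 members had p under 0.05, beside 2454 of all 13419 genes tested. The median log2 change was 0.16. It was 0.062 without WT replicate 2, 0.10 without WT replicate 3 and 0.29 without WT replicate 5, and 0.076 without KO+AAV replicate 1 and 0.25 without KO+AAV replicate 4. After the correction for transcript length it was 0.013. The intervals do not show that the levels were alike: they reached from -0.069 to 1.18 for Ndufa13, which had the highest change at 0.56. Ndufs1 had the lowest, -0.88 (95% interval -1.62 to -0.13, adjusted p = 0.22). Ndufaf2, the other member with an unadjusted p under 0.05, was higher in KO+AAV and not called (log2 change 0.53, adjusted p = 0.248). Ndufv1 was the one member with every KO+AAV library below every WT library, and its change of -0.23 was not called (adjusted p = 0.308). Ndufaf7 averaged 378 ± 51.5 in KO+AAV and 458 ± 47.5 in WT (SD, n = 4 and 5; log2 change -0.28, 95% interval -0.56 to 0.0013). None of the 9 assembly factors with other names, the 15 regulators and the 39 subunits of complexes II to V was called either, with medians of -0.17, -0.31 and 0.13.

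At 6 weeks, no complex I transcript was called between KO and WT hearts by limma, although most were lower in KO. Of the 45 members 0 were called, against 0.589% of all genes. An unadjusted p under 0.05 was found for 6 members, beside 2045 of all 13242 genes tested. The median log2 change was -0.32, beside 0.005 over all genes, and 41 of 45 lay below 0. Without the WT library WT1 the median was -0.16, and without WT16 it was -0.51. The smallest adjusted p was 0.207, for Ndufv3, which had 3087, 3079.8 and 2832 in KO libraries, against 6203, 4745 and 3679 in WT libraries. In 7 of 45 members, Ndufv3 among them, the KO libraries all lay below the WT libraries, against 10.3% of all genes. Ndufs6, a zinc-binding accessory subunit, had the lowest change at -0.70 (95% interval -1.23 to -0.17), and Ndufa4l2 the highest at 0.51 (95% interval -0.22 to 1.25).

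The core subunits described here had overlapping groups at 6 weeks. Ndufs7 had 3341, 2959 and 2619 in KO libraries, against 3831, 3193 and 2502 in WT libraries. Ndufv1 had 4756, 3859.9 and 3303 in KO libraries, against 8197, 4513 and 2907 in WT libraries. In both, one WT library was the highest of the 6 and another WT library the lowest. Ndufs3 had 1758, 1548 and 1315 in KO libraries, against 2389, 1907 and 1355 in WT libraries. Ndufs8 had 2057, 1940.0 and 1556 in KO libraries, against 2848, 2531 and 1880.4 in WT libraries. Ndufv2 had 1714, 2488 and 1797 in KO libraries, against 2989, 2361 and 2241 in WT libraries. The changes of these 5 lay between -0.37 and -0.081, each with a 95% interval that held 0. Ndufs1 had 828, 1046 and 769 in KO libraries, against 1032, 816 and 986 in WT libraries, with a change of -0.11 (95% interval -0.53 to 0.32).

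Among the other members at 6 weeks, Ndufa5 had 3233, 3567 and 2828 in KO libraries, against 5546, 3898 and 3304 in WT libraries. Ndufb7 had 5342, 5559.9 and 5146 in KO libraries, against 11201, 9130.1 and 6368 in WT libraries. Ndufa3 had 3684, 3184 and 3169 in KO libraries, against 5238, 5230.4 and 4115 in WT libraries. Ndufb7 and Ndufa3 had no overlap between groups, with changes of -0.70 and -0.53 that were not called. Ndufa4 had 4553, 7109.7 and 4447 in KO libraries, against 7409, 6149 and 5565 in WT libraries. Ndufa4l2 had 314, 214 and 270.0 in KO libraries, against 329, 113 and 167 in WT libraries. Both groups overlapped in each. The assembly factors had a median change of -0.16. The assembly factors with other names, the regulators and complexes II to V had 0 called genes each, with medians of -0.017, -0.14 and -0.32. Cardiomyocyte markers had a median of -0.36 and fibroblast markers of 0.51, with 0 called. Endothelial markers made up 0.178% to 0.192% of the total in KO and 0.112% to 0.147% in WT libraries, and skeletal muscle markers 0.0877% to 0.155% in KO and 0.0177% to 0.0398% in WT libraries, both without overlap. Of these lists Acta1 alone was called (2.01, adjusted p = 0.0264), and their part in the 6-week values was not tested.

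Ndufaf4 had 392, 498 and 403 in KO libraries, against 979, 631 and 495 in WT libraries at 6 weeks, and its change of -0.65 was the lowest of the assembly factors (adjusted p = 0.241). Ndufaf1 had 118, 131 and 100.3 in KO libraries, against 152, 134 and 107 in WT libraries. Ndufaf2 had 120.5, 149.6 and 124 in KO libraries, against 149.9, 144 and 125 in WT libraries. The highest value of each of these 3 factors was in a WT library. Ndufaf3 had 220.3, 149 and 149 in KO libraries, against 203, 165 and 129.5 in WT libraries. Ndufaf5 had 71.8, 98.5 and 66 in KO libraries, against 144, 72 and 57.6 in WT libraries. Ndufaf3 alone had a KO library as the highest. Ndufaf6 had 23.5, 35.9 and 43.7 in KO libraries, against 51.8, 44.3 and 39.1 in WT libraries. Ndufaf7 had 103, 102 and 53.6 in KO libraries, against 168, 82.7 and 106 in WT libraries. The groups of both overlapped, and neither was called.

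For most members the KO change was lower at 6 months than at 6 weeks, but the difference between ages was called for none. The difference of the log2 changes, 6 months minus 6 weeks, was below 0 in 42 of 45 members, with a median of -0.35. That median was -0.53 without one WT library of 6 weeks (WT1), -0.16 without another (WT16), -0.16 with Y-linked libraries alone at 6 months and -0.11 after the correction for transcript length described last. By the combined limma models 0 of 45 members passed, against 4.08% of all genes. Before adjustment 6 members had p under 0.05, beside 2276 of all 12709 genes tested. Ndufab1 came closest, with changes of -0.75 at 6 months and -0.03 at 6 weeks (difference -0.72, 95% interval -1.21 to -0.23, adjusted p = 0.0915). Ndufs7 followed, with -0.91 and -0.081 (difference -0.83, adjusted p = 0.115). Outside the members, Ppargc1a was the one regulator whose knockout effect differed between ages, at -1.05 and 0.45 (adjusted p = 0.0315), and 1 of 39 subunits of complexes II to V also passed as lower. The ages stand in separate tables whose scales differ, so levels are compared only within an age.

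**Figure D4:**
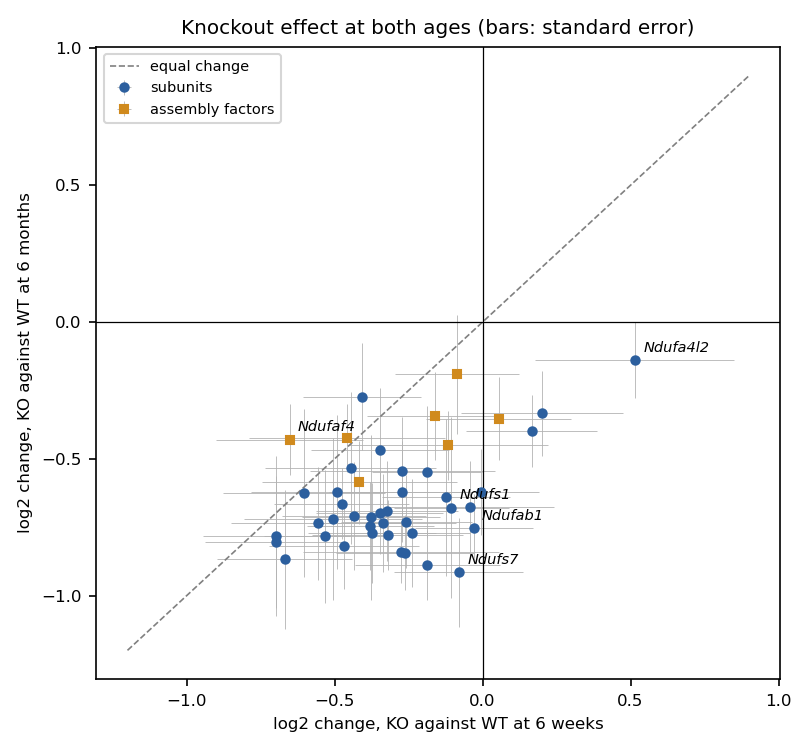
Log2 change of each member between KO and WT hearts at 6 weeks (x axis) and at 6 months (y axis), with standard errors; circles are subunits and squares assembly factors. Of the 45 points, 42 lie below the dashed line of equal change, and all lie below 0 on the y axis.

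Libraries of one group differed in the level of the members as a whole, and other short transcripts differed with them; the part of transcript length in the results was not tested beyond the correction given last. The median deviation of the members from the WT mean was 0.50, 0.27, -0.053 and -0.10 on the log2 scale in KO+AAV replicates 1 to 4. That of 232 other genes with principal transcripts under 800 bases and a mean of at least 100 was 0.48, 0.39, 0.077 and -0.049 in the same libraries. Both sets were highest in replicate 1 and lowest in replicate 4. In KO libraries the members lay between -0.84 and -0.33 and the other short transcripts between -0.53 and 0.23. In WT libraries the members lay between -0.39 and 0.41 and the other short transcripts between -0.38 and 0.44. In KO replicates 1 and 5 the members lay at -0.33 and -0.68, and the short transcripts at 0.23 and -0.026. Over the 349 genes tested with transcripts up to 800 bases the median log2 change was -0.20 in KO against WT and 0.43 in KO+AAV against KO, while over the 2572 above 5000 bases it was 0.099 and -0.15.

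**Figure D5:**
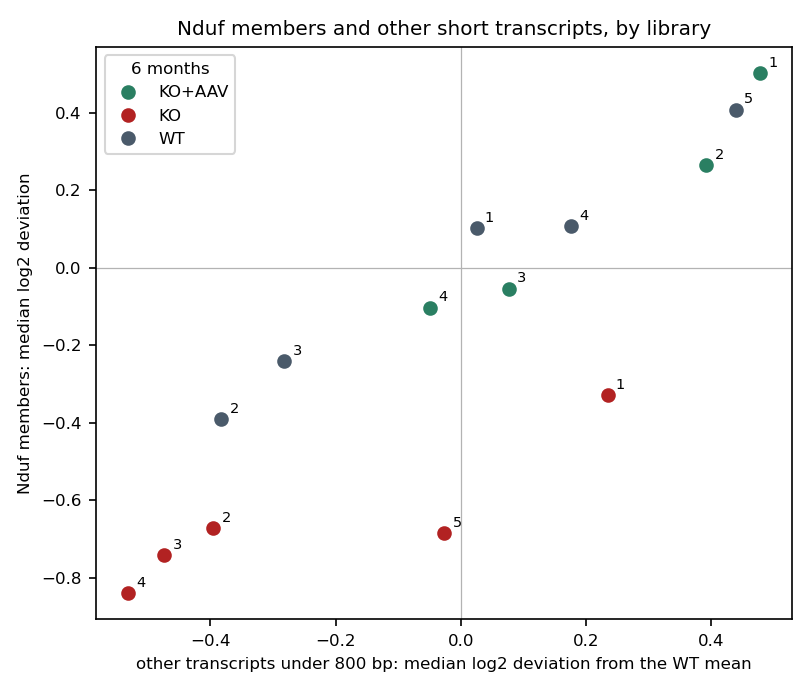
Median log2 deviation from the WT mean of the 45 members (y axis) against that of 232 other genes with transcripts under 800 bases (x axis), for each 6-month library (numbers are replicates). All 5 KO libraries lie below the run of the KO+AAV and WT libraries, KO 1 and 5 farthest to the right among them.

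Ndufs1, with a principal transcript of 2661 bases, ran opposite to most members: after removal of group means, its correlation with the median of the other members was -0.80 over 14 libraries, a description of libraries that share one normalisation. Ndufaf1, Ndufaf7 and Ndufa10 were the other 3 members below 0 in this measure, and 35 of 45 were above 0.5. A correction of each library for transcript length, chosen after seeing the data, left 28 members lower in KO than in WT at 6 months (24 of them called without it), against 8.55% of all genes, with a median of -0.51. It left 31 higher in KO+AAV than in KO (30 called without it), against 4.9% of all genes, with a median of 0.51. Under it Ndufs7 had -0.75 in KO against WT and 0.74 in KO+AAV against KO, and Ndufv1 had -0.75 and 0.48.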

How the data were processed

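Poly(A) RNA of 20 libraries was sequenced as stranded 150 bp read pairs, per the labels' protocols, and the genome build was mm10, per the submitters' processing notes. Aligner, counter and strand setting were not given in the sources used here. Per the series text, the authors tested with DESeq2. As values per gene, the authors deposited normalised counts, a signal that is fractional and never negative, in 1 table per age, on scales that differ; at least 40 M paired-end reads were made per sample, per the series text, but the reads behind a value are not stated, so no counting intervals are given. No value column was left out. Columns at 6 weeks matched a group but no single sample.

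Values were transformed as log2(value + 1), and fold changes are on that scale, which understates changes of low genes. Genes at 10 or more in at least 3 libraries (6 weeks) or 4 libraries (6 months) were tested with limma 3.58.1 in R 4.3.3 (mean-variance trend, two-sided), with Benjamini-Hochberg adjustment over all genes tested and a threshold of 0.05. One model held KO+AAV, KO and WT at 6 months. Effects at the 2 ages were compared by their difference over the combined standard error, with Welch-Satterthwaite degrees of freedom. The fit was tested on simulated data.

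Transcript lengths and positions came from GENCODE M21 (GRCm38), as the principal transcript of each gene. The length correction subtracted, per library, a lowess curve (span 0.3) of deviation against log2 length, fitted without the members and complexes II to V, and kept the 12919 of 13419 genes with a length. Values in every library are given for core subunits, Ndufaf rows, Ndufa4, Ndufa4l2 and the 4 largest called changes per comparison. The values of 1 member are not reported here. Members and lists were chosen with earlier results of these data known. Alternatives covered the pseudocount, filter, scaling, variance model, Xist or Y-linked class, replicate number and libraries left out.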

Additional observations from a re-analysis of the deposited data

Results flagged for a closer look

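Within the 6-month groups, a single library stood apart from the rest of its group in 8 of 138 combinations of gene and group (45 members and Sorbs2 in 3 groups), and chance alone marks about 1 in 20. In KO+AAV hearts, Ndufaf1 had 438 normalised counts in replicate 2, against 669 to 679 in the others, and Ndufs3 had 7549 in replicate 1, against 5142 to 5289. In KO hearts, replicate 1 was high for Ndufa3 (3538, against 1964 to 2242), Ndufs8 (2748, against 2150.3 to 2232) and Ndufv3 (3408, against 1944 to 2282). KO replicate 5 was low for Ndufa9 (4075, against 5249 to 5645) and Ndufs3 (2945, against 3312 to 3468). In WT hearts, Ndufaf4 had 1245 in replicate 1, against 901 to 982 in the others. KO replicates 1 and 5 are the KO libraries with the most Sorbs2. Without both, 25 members were lower in KO than in WT, beside 714 of all genes tested. In that setting 36 members were higher in KO+AAV than in KO, beside 863 of all genes.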

How the results depend on the processing

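No called member changed direction under any alternative run, and the count of members called stayed within 1.5 times the count reported except as follows. For KO against WT at 6 months (28 lower), 16 were lower with libraries scaled to equal totals, 18 after quantile normalisation and 12 with Y-linked libraries alone, and leaving out 1 library gave 18 (without KO replicate 4) to 30. Of all genes, 1098 were lower in the main fit. Under those settings 653 (equal totals), 1024 (quantile), 675 (Y-linked alone) and 980 (without KO replicate 4) were lower. For KO+AAV against KO (35 higher), 14 were higher with Xist or Y-linked class as a covariate and 3 with Y-linked libraries alone, and leaving out 1 library gave 15 (without KO+AAV replicate 1) to 38. Of all genes, 745 were higher in the main fit. That number was 224 with the covariate, 82 with Y-linked libraries alone and 238 without KO+AAV replicate 1. For the difference between ages, leaving out 1 library gave 0 to 1 (Ndufa4l2 without the first WT library at 6 weeks). Scaling to equal totals moved the median of all genes to 0.16 in KO against WT, and the members lay -0.68 from it. Under that scaling 1775 genes were higher and 653 lower in KO, against 1091 and 1098 without it, 521 were higher and 1017 lower in KO+AAV than in KO, against 745 and 764, 158 higher and 82 lower in KO+AAV than in WT, against 82 and 96, and 27 higher and 9 lower in KO at 6 weeks, against 50 and 28. The difference between ages had 252 and 176, against 253 and 265. In 11 of the 28 members lower in KO and 3 of the 35 higher in KO+AAV the call held under every alternative. Like-numbered libraries correlated above 0.1 in 7 of 13 pairs (range -0.391 to 0.253). Such correlations cannot decide whether the numbers pair the samples, and the main fit used no pairing. With the replicate number as a block (replicate block), 25 members were lower in KO than in WT and 39 higher in KO+AAV than in KO, beside 1044 and 855 of all genes. Under that block 0 were called in KO+AAV against WT and in the difference between ages. The median change of the members moved by more than 1.5 times, with no call gained or lost, after quantile normalisation (0.26 in KO+AAV against WT, -0.21 in the difference between ages), with Y-linked libraries alone (0.29 in KO+AAV against WT) and with Xist or Y-linked class as a covariate (-0.23 in the difference between ages). The reads behind a value are not stated, so the limit set by depth cannot be given.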
